A study of Mus musculus with 12 samples.

Results

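The transcriptome of epididymal white adipose tissue (the visceral fat pad that lies against the epididymis and testis of male mice, named eWAT in the labels) was described in 6 mice that received a saline injection. These 6 libraries, numbered 1 to 6 as the labels number the replicates, are the control group of a series of 12 libraries and were taken by their group label alone. The animals were male C57BL/6J mice on chow, and saline was given into the peritoneal cavity at about 9 in the morning, in the volume used for the study's other group, which received epinephrine at 0.5 mg/kg. Fat was collected 1 h later from both groups, and each library is labelled as a biological replicate. No library of the epinephrine group was used, and nothing below compares the 2 groups. The labels list ages of 12 to 17 weeks for libraries 1 to 6, one week apart in the order of the replicate numbers, so listed age and library cannot be told apart.

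White fat stores energy as triglyceride in adipocytes, each holding a single large lipid droplet, and releases fatty acids by lipolysis when catecholamines act on beta-adrenergic receptors. It is also an endocrine organ: adipocytes secrete adiponectin, leptin, resistin and the complement protease adipsin, and stromal cells secrete the collagens and proteoglycans of the matrix around them. The pad also holds endothelial cells, fibroblast-like progenitors, macrophages, lymphocytes and a mesothelial covering, and in male mice it touches the epididymis, the coiled duct in which sperm mature.

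Levels are given as TPM, the usual length-scaled unit of transcript abundance: the count of a gene divided by its listed length and scaled so that every library has the same total, which allows genes to be compared with each other within a library. The deposited counts summed to between 25442480 and 34405433 per library (mean 29559026 ± 3733474, SD, n = 6). A mean TPM of at least 1 was reached by 15254 of 27179 genes (56.1%), and 13472 genes (49.6%) reached it in each of the 6 libraries. No 2 libraries held identical counts, and over the 15254 genes Spearman's rho between pairs of libraries lay between 0.811 and 0.986. Library 2 stood apart: without it the lowest rho was 0.929. Libraries 1 and 3 shared some of its genes, described below, and results that rest on these libraries are given with and without them.

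A few genes held much of the RNA. Cfd, which encodes adipsin (complement factor D), and Fabp4, the fatty acid carrier of the adipocyte cytoplasm, together made up 5.02% of the mean TPM. The 10 most abundant genes held 13.2%, the 30 most abundant 21.0%, and 1000 genes 60.7%. Of the 100 most abundant, 12 belonged to a list of 24 adipocyte markers, 11 encoded ribosomal proteins, 7 were mitochondrial genes, 6 belonged to a list of 18 epididymis genes and 42 belonged to none of the 39 lists used here. Of the 6 epididymis genes, whose means rest on library 2, 1 was among the 100 most abundant without that library and none without libraries 1, 2 and 3. These 100 genes were also short, with a median length of 1316 bases against 2608.5 bases over the 15254 genes.

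Cfd (chr10:79890853-79892655) was at 27710, 11193, 22532, 29357, 30903 and 31367 TPM in libraries 1 to 6 (mean 25510 ± 7706, SD, n = 6). Fabp4 (chr3:10204342-10208616) was at 24978, 9767, 23622, 30286, 29119 and 30075 TPM. Adipoq (chr16:23146536-23157968), the gene of adiponectin, was at 5085, 2058, 4859, 6338, 5592 and 6015 TPM. All 3 genes were lowest in library 2, whose level was well below the range of the other 5 libraries.

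Other adipocyte enzymes and lipid proteins stood just below. Car3, the carbonic anhydrase of fat and muscle, had a mean of 14533 TPM (5751 to 19660). Cyp2e1, a cytochrome P450, had a mean of 6137 TPM (2210 to 9211), and Scd1, the desaturase that makes oleate, 4730 TPM (1782 to 6253). Cidec, which enlarges lipid droplets, had 4233 TPM (1407 to 5955) and Lpl, the lipase that frees fatty acids from lipoproteins, 3264 TPM (1181 to 4482). Nnat, the proteolipid neuronatin, was at 2447 TPM (973 to 3272). Each of these was lowest in library 2.

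The remaining places among the 30 were held by genes of several cell types. Gsn (gelsolin, which severs actin filaments) had a mean of 10640 TPM, Apoe (apolipoprotein E) 6846 TPM and Fth1 (ferritin heavy chain) 5516 TPM. B2m, the light chain of MHC class I, was at 3368 TPM, and the interferon-induced gene Ifi27l2a at 3685 TPM. The plasma proteins haptoglobin (Hp) and transferrin (Trf) had means of 4511 and 3613 TPM, and the secreted glutathione peroxidase Gpx3 was at 2543 TPM. Rplp1, a ribosomal stalk protein, varied least of the 30, from 2259 to 2671 TPM. The immunoglobulin kappa constant gene Igkc ranged from 920 TPM in library 4 to 3885 TPM in library 3. Library 2 was the lowest in 24 of the 30 genes and the highest in 4, namely Gpx5, Lcn8, Itm2b and Eef1a1. Over the 9878 genes with a mean of at least 10 TPM and 300 bases or more, these shares were 48.3% and 28.9%.

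**Figure D1:**
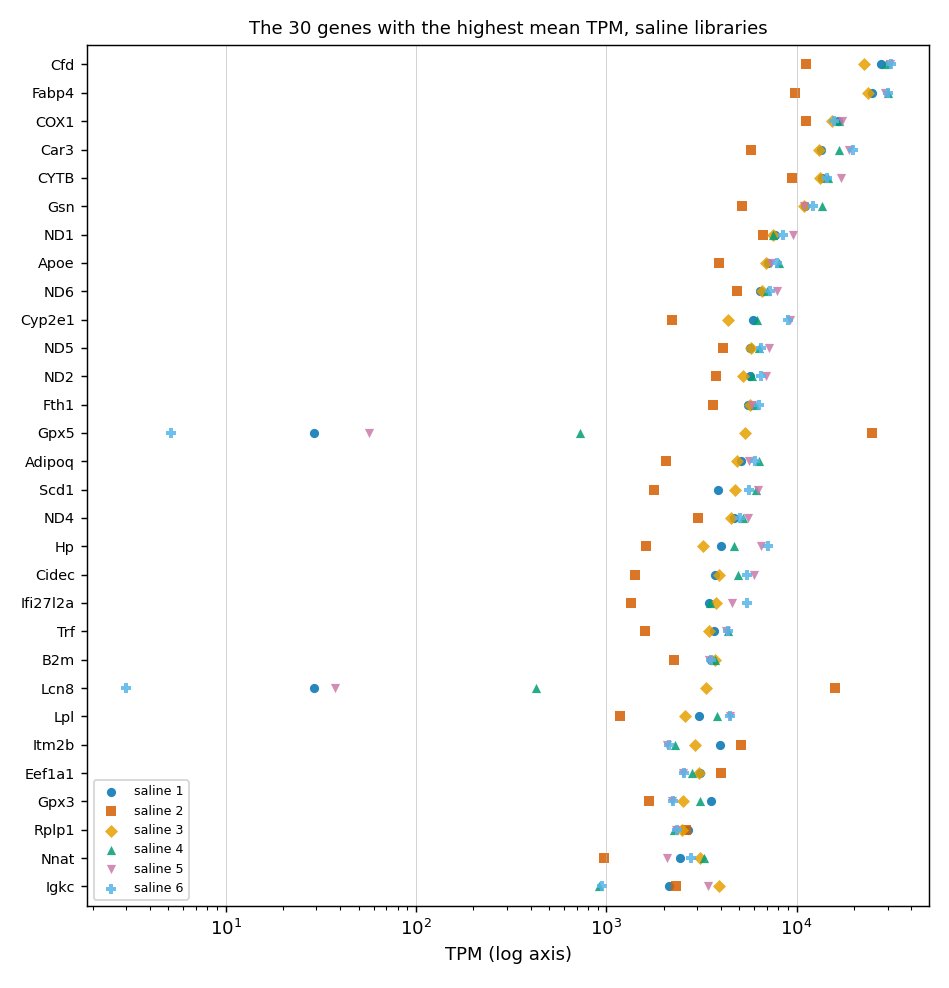
TPM on a log axis of the 30 genes with the highest mean TPM, 1 point per saline library. Library 2 is the lowest point in 24 of the 30 rows, whereas Gpx5 spreads from 5.15 to 24954 TPM and Lcn8 from 2.99 to 15867 TPM; without library 2 their means are 1237 and 768 TPM.

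Of the 13 protein genes of the mitochondrial genome, 7 were among the 30 most abundant. COX1, the core subunit of cytochrome oxidase, had a mean of 15465 TPM, CYTB (cytochrome b) 13684 TPM, and ND1, ND6, ND5, ND2 and ND4, subunits of complex I, between 4694 and 7897 TPM. The other 6 (ND3, ATP6, COX2, ATP8, COX3 and ND4L) had means of only 18.8 to 52.9 TPM. Reads of mitochondrial genes can match copies in the nuclear genome, ND6 lies on the strand opposite the others, and how reads with several matches or on either strand were counted is not given in the sources used here, so these levels are uncertain. The list held 6.02 ± 0.941% of TPM (SD, n = 6). Its 13 genes were all lowest in library 2, against 48.3% of the 9878 genes. Respiratory chain subunits encoded in the nucleus held 0.858 ± 0.114%. Atp5b, the catalytic subunit of ATP synthase, led them at 1637 TPM, followed by Cox4i1 at 1384 TPM.

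The upstream sequences of Cfd and Adipoq are shown because these genes mark the adipocyte share of the RNA. Both come from RefSeq (GRCm38.p6), cover the 100 bases before the first listed start site on the plus strand, at chr10:79890753-79890852 and chr16:23146436-23146535, and have capitals where CCAAT or its reverse complement ATTGG occurs. TATAAA, in capitals elsewhere below, occurred in neither on either strand.
Cfd: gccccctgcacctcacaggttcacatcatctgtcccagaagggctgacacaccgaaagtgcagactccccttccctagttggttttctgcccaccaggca
Adipoq: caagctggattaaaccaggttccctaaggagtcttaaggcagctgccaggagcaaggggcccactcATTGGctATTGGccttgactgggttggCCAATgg
Adipoq held CCAAT 3 times, counting both strands, and Cfd did not hold it.

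Markers of white fat were present throughout, as the tissue label has it. All 24 adipocyte markers reached 1 TPM in each library (49.6% of all genes did), and they summed to 9.07 ± 2.91% of TPM. The share was 9.01, 3.68, 8.37, 10.7, 11.2 and 11.4% in libraries 1 to 6, so libraries 4 to 6 were close together and library 2 was 0.344 times the median of the others. All 24 genes were lowest in library 2, against 48.3% of the 9878 genes with a mean of at least 10 TPM and a length of at least 300 bases. Markers of brown and beige fat summed to 0.00391% of TPM: the mitochondrial uncoupler Ucp1 had 0 to 2 counts per library, at or below the 3 counts taken as the limit that a count of 0 allows (0.119 to 0.157 TPM). Cox8b, a muscle and brown fat isoform of a cytochrome oxidase subunit, led that list at 25.7 TPM. In bulk tissue, fewer cells of a type and less RNA per cell cannot be told apart.

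Adipocyte genes varied less relative to Adipoq than in their levels between libraries. Relative to Adipoq in the same library, the coefficient of variation (CV, the SD as a percentage of the mean) was smaller than that of TPM for 23 of the 23 other adipocyte markers, with medians of 12.7% and 35.0%. Over the 9877 genes other than Adipoq with a mean of at least 10 TPM and 300 bases or more, the ratio had the smaller CV in 16.0%. All 24 adipocyte markers, Adipoq included, were lowest in library 2, and a shared drop there makes the CV of such ratios smaller. Other lists that were low in library 2, such as the endothelial and macrophage lists, were not examined in this way. Fabp4 was at 4.75 to 5.21 times Adipoq in the 6 libraries (CV 3.43%). Adrb3, the beta-3 adrenergic receptor through which catecholamines start lipolysis, was at 0.177 to 0.192 times Adipoq (CV 3.15%), and the fatty acid transporter Cd36 had a CV of 2.66%.

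Some adipocyte genes did vary relative to Adipoq, and these were picked out after their values were seen. Dgat2, which makes the last step of triglyceride synthesis, was at 0.206, 0.255, 0.283, 0.202, 0.448 and 0.326 times Adipoq. Lep, the gene of leptin, was at 0.0430, 0.0559, 0.0624, 0.0600, 0.0980 and 0.0839 times Adipoq. Both were highest in libraries 5 and 6. The same held for Mrap, a chaperone of the ACTH receptor, and for Retn (resistin). Other markers with variable ratios differed in order: Acsl1, which activates fatty acids, was highest relative to Adipoq in library 2 (0.239), and Gpd1, which makes glycerol phosphate, in libraries 5 (0.112) and 2 (0.106).

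The machinery of fat storage and release was expressed throughout. In the list of lipid droplet and lipolysis genes, 16 of 18 reached 1 TPM in every library (49.6% of all genes did). The list held 1.29 ± 0.450% of TPM. After Cidec came Pnpla2, the lipase ATGL that starts triglyceride breakdown (2105 ± 757 TPM), and the droplet coat protein Plin1 (2094 ± 698 TPM). Plin4 was at 1268 ± 457 TPM and Lipe, hormone-sensitive lipase, at 1227 ± 430 TPM. The 2 genes below 1 TPM were Fitm1 and G0s2. G0s2, an inhibitor of ATGL, had 10 counts over the 6 libraries together. Genes of fatty acid synthesis and esterification held 1.31 ± 0.412%: after Scd1 came Pck1, which feeds glycerol synthesis (1991 TPM), Dgat2 (1449 TPM) and Thrsp, a promoter of lipogenesis (1369 TPM). Genes of fatty acid uptake and binding held 3.53 ± 1.10%, with Cav1, the coat protein of caveolae, at 2057 TPM and Cd36 at 1879 TPM.

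All 18 listed genes of adrenergic signalling reached 1 TPM in every library (49.6% of all genes did). Adrb3 (chr8:27225776-27230845) led them at 940, 363, 932, 1144, 991 and 1114 TPM. Adrb1, the beta-1 receptor, had a mean of 6.53 TPM, with 14.8 TPM in library 3 and 2.99 to 6.42 TPM in the others. The G protein subunits Gnai2 (475 TPM) and Gnas (393 TPM) and the kinase subunits Prkar2b (326 TPM) and Prkar1a (209 TPM) followed, with the phosphodiesterase Pde3b (209 TPM). Gnas and Gnai2 varied little, with SDs of log2(TPM + 1) of 0.07 and 0.11, whereas Adrb3 and Prkar2b had SDs of 0.62 and 0.72. For glucose handling, the insulin-regulated transporter Slc2a4 was at 146 TPM.

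**Figure D2:**
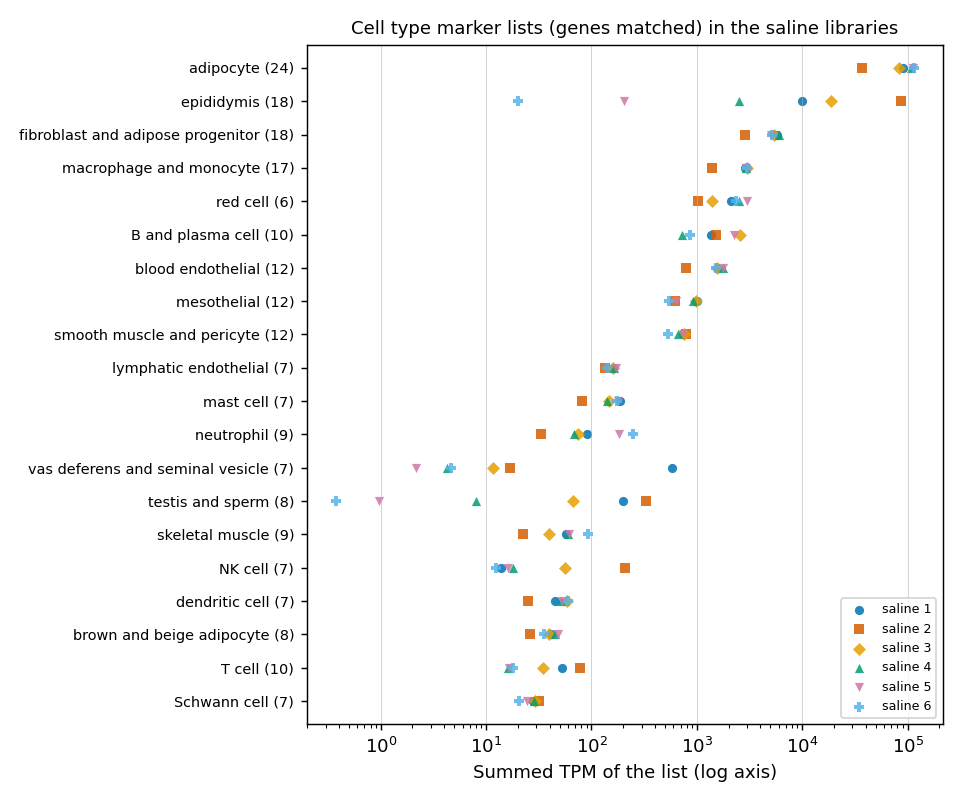
Summed TPM, on a log axis, of each cell type marker list in each saline library, with the number of listed genes matched in parentheses. Adipocyte markers sum to 36806 to 114087 TPM, epididymis genes range from 19.9 to 87205 TPM between libraries, and the macrophage list is narrow apart from library 2.

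Stromal, vascular and immune markers summed to far less than adipocyte markers. Fibroblast and progenitor markers held 0.505 ± 0.111% of TPM, led by the proteoglycan decorin (Dcn, 2056 ± 506 TPM) and by Col3a1 (736 ± 184 TPM). Blood endothelial markers held 0.150 ± 0.0369%, led by Gpihbp1, which carries lipoprotein lipase to the capillary wall, at 306 TPM, and by Cd300lg at 197 TPM. Mesothelial markers held 0.0779 ± 0.0204%, with Upk3b at 222 TPM and Msln (mesothelin) at 58.7 TPM. Smooth muscle and pericyte markers held 0.0705 ± 0.00933%, with the actin Acta2 at 205 TPM. Lymphatic endothelial markers held 0.0155 ± 0.00149%, with Lyve1 at 58.0 TPM, whereas Ccl21a had no count in any library (a count of 0 allows up to 0.298 TPM). All 12 blood endothelial and 16 of 18 fibroblast markers were lowest in library 2, against 48.3% of the 9878 genes. The remaining lists were mixed. Library 2 was the lowest in 8 of 12 mesothelial markers and the highest in 3. It was the lowest in 5 of 12 smooth muscle and pericyte markers and the highest in 5. For lymphatic markers it was the lowest in 3 of 7 and the highest in 1. It was the highest in 28.9% of the 9878 genes.

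Macrophage markers held 0.269 ± 0.0631% of TPM and B and plasma cell markers 0.155 ± 0.0743%, or 0.383 ± 0.197% with Igkc, which is not in that list. The macrophage list was at 0.141% in library 2 and at 0.286 to 0.300% in the other 5. Lyz2 (lysozyme, 1151 TPM) led it, with the complement components C1qa (337 TPM) and C1qc (329 TPM) and the receptor Csf1r (164 TPM). All 17 macrophage genes reached 1 TPM in every library (49.6% of all genes did). All 17 were lowest in library 2, against 48.3% of the 9878 genes. Dendritic cell markers held 0.00487% and mast cell markers 0.0151%, the latter led by the proteases Tpsb2 (45.0 TPM) and Mcpt4 (40.6 TPM).

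B lineage genes varied between libraries in their own order. Ighm, the heavy chain of IgM, was at 1248, 1397, 2364, 675, 2069 and 799 TPM. Jchain, which joins IgM and IgA into polymers, was at 97.8, 115, 196, 42.7, 152 and 44.1 TPM. Together with Igkc, these genes were highest in libraries 3 and 5 and lowest in libraries 4 and 6, and library 2 lay between. Markers of the B cell surface were low: Cd79a and Cd79b had means of 5.19 and 5.97 TPM.

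T and NK cell lists were small, and a single gene dominated each. T cell markers summed to 0.00359% of TPM, but Tcf7, a transcription factor, gave most of it, at 40.3, 65.0, 19.0, 4.20, 2.64 and 3.51 TPM. Without Tcf7, library 2 was at 0.886 times the median of the other libraries. The T cell receptor components Cd3g, Cd3e and Cd3d had means of 3.24, 2.02 and 1.26 TPM. In the NK list Klrb1c, the NK1.1 receptor, was at 2.03, 201, 44.0, 7.20, 1.66 and 1.41 TPM, and without it library 2 was at 0.648 times the median of the others. Tcf7 and Klrb1c therefore followed the epididymis genes described below in libraries 2 to 4 and did not follow the other members of their lists.

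Genes of blood were also present, and those of muscle were low. Red cell genes held 0.206 ± 0.0733% of TPM, mostly the alpha globins Hba-a1 (992 TPM) and Hba-a2 (858 TPM), near-identical copies whose separate levels are uncertain. Skeletal muscle markers held 0.00557%, with the actin Acta1 at 8.66 TPM in library 2 and 78.9 TPM in library 6. Of the 9 markers, 4 reached a mean of 1 TPM (56.1% of all genes did). In library 2, 4 of the 9 were highest and 2 were lowest, against 28.9 and 48.3% of the 9878 genes. Myh4, a fast muscle myosin, had 2 counts in the 6 libraries together. Schwann cell markers held 0.00271%, with Mbp at 15.5 TPM.

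The lists of secreted proteins, 157 genes in all, held 8.20 ± 1.72% of TPM, from 4.94% in library 2 to 9.58% in library 6. Of these genes, 143 reached 1 TPM in every library (49.6% of all genes did). Library 2 was the lowest in 123 of them, against 48.3% of the 9878 genes. The secreted lists do not include the epididymis genes described below, many of which also encode secreted proteins. Those held 8.72% of TPM in library 2 and 0.00199% in library 6. Adipokines were the largest list at 3.69 ± 0.794%, and Cfd alone was 2.55% of the mean TPM. Below Cfd and Adipoq, Retn was at 1802 ± 692 TPM, angiotensinogen (Agt) at 630 ± 191 TPM and Angptl4, an inhibitor of lipoprotein lipase, at 576 TPM. Lep was at 345 ± 167 TPM. Gdf15, a stress-induced hormone that acts on the hindbrain, was low at 4.21, 1.62, 2.31, 2.31, 2.60 and 2.16 TPM. Vaspin (Serpina12) had 4 counts and intelectin (Itln1) 1 count over the 6 libraries.

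Lcn2, the iron-siderophore carrier lipocalin 2, ranked 4th among the adipokines by its mean of 1588 TPM, but only through some libraries. It was at 168, 7279, 1662, 247, 92.5 and 76.4 TPM. Without Lcn2 the adipokine list of library 2 was 0.371 times the median of the other libraries. Clu, the chaperone clusterin, behaved alike at the head of the complement list, at 2079, 4625, 1377, 458, 270 and 263 TPM. Library 2 was 1.10 times the median of the others for the whole complement list and 0.448 times without Clu. C3, the central complement component, was at 1488 ± 430 TPM and Serping1, the C1 inhibitor, at 616 ± 125 TPM, both lowest in library 2.

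Matrix and carrier proteins made up most of the rest. Lipoprotein, lipid carrier and acute phase genes held 1.92 ± 0.580% of TPM, with Apoe, Hp, Trf and Lpl far above Apoc1 (293 TPM). Matrix glycoproteins and proteoglycans held 0.736 ± 0.169%, with Sparc at 1397 ± 374 TPM after Dcn. Collagens held 0.328 ± 0.0726%: Col3a1 was followed by the basement membrane collagen Col4a1 (472 TPM) and by Col1a2 (365 TPM). The collagen list was at 0.180% in library 2 and at 0.349 to 0.362% in the other 5. Protease inhibitors held 0.456 ± 0.101%, led by cystatin C (Cst3, 1638 ± 210 TPM) and Timp2 (591 TPM). Growth factors and their binding proteins held 0.309 ± 0.0558%, led by Igfbp4 (832 TPM) and Igfbp7 (787 TPM).

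The widest differences between libraries were in genes of the epididymis. The 18 listed genes encode proteins that the epididymal epithelium secretes onto sperm or carries on its surface, among them lipocalins, beta-defensins and the glutathione peroxidase Gpx5. Gpx5 (chr13:21286429-21292727) was at 29.2, 24954, 5369, 725, 56.5 and 5.15 TPM in libraries 1 to 6, from 507803 counts in library 2 to 129 in library 6. Lcn8 (chr2:25653118-25656217) was at 29.0, 15867, 3339, 429, 37.4 and 2.99 TPM. Gpx5 was the most abundant gene of library 2, above Cfd and Fabp4. The list as a whole held 1.01, 8.72, 1.87, 0.250, 0.0206 and 0.00199% of TPM. Its mean of 1.98 ± 3.38% fell to 0.630% without library 2 and to 0.0908% without libraries 1, 2 and 3.

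Across libraries 2 to 6 these genes kept an almost constant proportion. Of the 18 genes, 17 ranked libraries 2, 3, 4, 5 and 6 in that order from high to low (976 of the 9878 genes with a mean of at least 10 TPM, or 9.88%, did so). Pate4, at 0 to 17 counts, was the exception. In library 3 the 17 genes were at 20.1 to 23.5% of their level in library 2 (median 21.6%). The median was 2.93% (2.71 to 3.56%) in library 4 and 0.240% (0.218 to 0.330%) in library 5. In library 6 it was 0.0250%, with a wider range of 0.00716 to 0.0953%, where some genes had few counts (5 for Crisp1 and 10 for Spint4).

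Library 1 held a different set of epididymis genes. There the 17 genes ranged from 0.117 to 312% of library 2. Spint4 (chr2:164698501-164702448), a Kunitz-type protease inhibitor, was at 2853, 914, 213, 32.6, 3.02 and 0.871 TPM. Crisp1 (chr17:40293758-40319207), a cysteine-rich protein that coats sperm, was at 1898, 817, 192, 25.9, 2.59 and 0.230 TPM. Both were highest in library 1, as was Rnase9 with 1091 TPM in library 1 and 1090 TPM in library 2. Lcn5 was at 2907 and 3166 TPM in libraries 1 and 2. By contrast, Gpx5, Lcn8 and Lcn9 were at 29.2, 29.0 and 9.75 TPM in library 1, far below their levels in library 2.

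**Figure D3:**
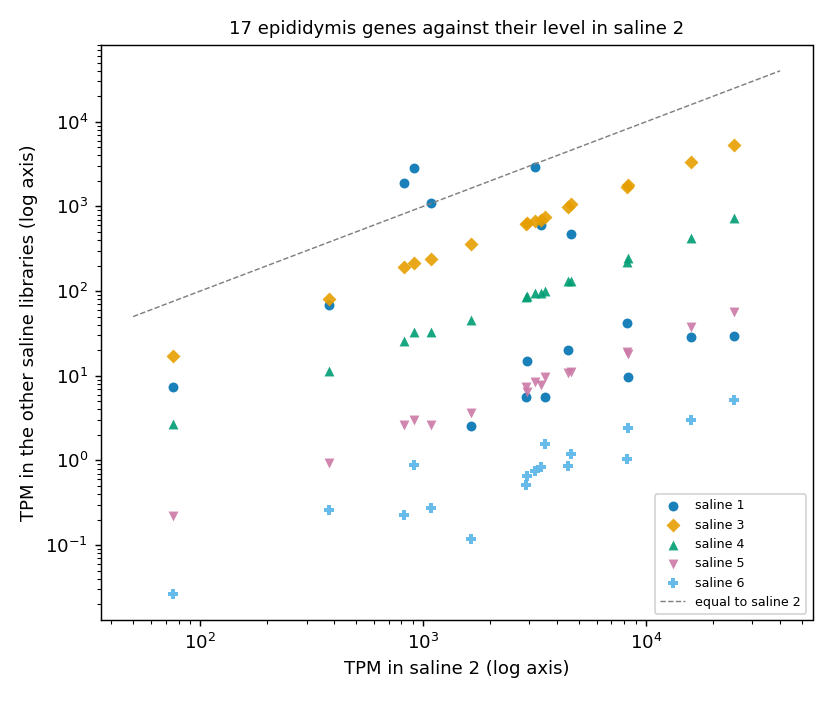
TPM of 17 epididymis genes in saline libraries 1, 3, 4, 5 and 6 (vertical, log axis) against their TPM in library 2 (horizontal, log axis), with 1 point per gene and library. The points of libraries 3 to 6 run parallel to the dashed line of equality, at medians of 21.6, 2.93, 0.240 and 0.0250% of it, while library 1 scatters on both sides.

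Genes of neighbouring tissues were measured beside them. The list of testis and sperm genes held 0.0201, 0.0330, 0.00673, 0.000807, 9.71e-05 and 3.75e-05% of TPM in libraries 1 to 6. Prm2, a protamine that packs sperm DNA, was at 42.6, 122, 25.3, 3.30, 0.460 and 0 TPM (0 counts in library 6), and Smcp, a protein of the sperm midpiece, was at 74.6 and 71.9 TPM in libraries 1 and 2. In library 3 the 8 sperm genes were at a median of 19.7% of library 2 and in library 4 at 2.66%. In library 1 they were at 35.0 to 104% of library 2. Akr1b7, an aldo-keto reductase of the vas deferens, was at 579 TPM in library 1 and at 0.0521 to 16.0 TPM in the others. The seminal vesicle gene Svs3a and the prostate gene Pbsn had no count in any library, which allows up to 0.215 and 0.330 TPM.

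From the highest to the lowest epididymis share the libraries ran 2, 3, 1, 4, 5 and 6, which was also their order from the lowest to the highest adipocyte share. With the epididymis, vas deferens and testis lists taken out of the total, the adipocyte share of library 2 was 4.03% and that of the other libraries 8.53 to 11.4%. With all 473 genes of wide spread (an SD of log2(TPM + 1) above 1) taken out, these shares were 4.73% and 8.89 to 11.5%. The 473 genes were chosen from these same libraries. Genes expressed in both fat and epididymis stay in either total, so these shares do not remove all RNA that epididymis could add. Whether RNA of epididymis in the collected pads set the lower adipocyte share of library 2 was not tested.

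Upstream sequences of 3 epididymis genes are shown because Lcn8 was high in library 2 and low in library 1, whereas Spint4 and Crisp1 were highest in library 1. They are the 100 bases before the first listed start site (RefSeq, GRCm38.p6), at chr2:25653018-25653117 on the plus strand for Lcn8, at chr2:164698401-164698500 on the plus strand for Spint4 and at chr17:40319208-40319307 on the minus strand for Crisp1. Capitals mark TATAAA and CCAAT, or their reverse complements.
Lcn8: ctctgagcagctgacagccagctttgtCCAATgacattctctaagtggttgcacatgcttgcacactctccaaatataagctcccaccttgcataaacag
Spint4: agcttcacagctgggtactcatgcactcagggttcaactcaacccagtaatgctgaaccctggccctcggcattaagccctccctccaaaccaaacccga
Crisp1: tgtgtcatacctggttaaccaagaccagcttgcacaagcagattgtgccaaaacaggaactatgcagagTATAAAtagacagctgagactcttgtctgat
In Crisp1, TATAAA starts 31 bases before the start site. Lcn8 held CCAAT and Spint4 held neither motif.

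A second set of genes varied between libraries in another order. In 17 of 20 immediate early genes, the transcription factors and feedback regulators that cells switch on within minutes of a stimulus, libraries 3, 5 and 6 were all above libraries 1, 2 and 4. This ordering, noticed in the values, held in 15 of 25 chemokine and cytokine genes and in 514 of the 9878 genes with a mean of at least 10 TPM (5.20%). It does not separate libraries by any label, and its cause was not tested.

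Among the immediate early genes, Zfp36, which destabilises cytokine mRNAs, was at 149, 101, 482, 219, 647 and 751 TPM. Junb, a subunit of the AP-1 factor, was at 61.3, 71.2, 287, 82.2, 267 and 323 TPM, and Fos, another AP-1 subunit, at 25.1, 21.2, 148, 73.4, 138 and 140 TPM. In all 3, libraries 3, 5 and 6 were high and library 4 was above libraries 1 and 2. Dusp1, a phosphatase that shuts off MAP kinases, ranged from 42.2 TPM in library 2 to 268 TPM in library 6, whereas Jund stayed between 126 and 186 TPM. Egr2 departed from this order: it was at 196 TPM in library 2, at 59.7 TPM in library 3 and at 9.96 to 19.0 TPM in the others. The whole list held 0.178 ± 0.0851% of TPM.

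The chemokines showed larger differences. Ccl2 (chr11:82035577-82037452), which attracts monocytes, was at 25.01, 19.9, 251, 29.0, 278 and 408 TPM. Cxcl1, which attracts neutrophils, was at 4.69, 3.69, 252, 10.4, 156 and 274 TPM, and Il6, a cytokine of the acute phase response, at 0.396, 0.295, 12.6, 0.897, 22.6 and 36.6 TPM. In these 3 genes the lowest of libraries 3, 5 and 6 lay far above the highest of the others. Not all chemokines varied so: Ccl6 was at 123 TPM in library 2 and at 327 to 367 TPM in the others, and Ccl11, the eosinophil attractant eotaxin, at 54.2 TPM in library 2 and 119 to 156 TPM in the others.

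The 2 calprotectin genes of the neutrophil list were highest in libraries 5 and 6 but not in library 3. S100a8 was at 10.5, 3.06, 7.78, 9.42, 55.4 and 82.8 TPM, and S100a9, its partner, at 9.71, 2.13, 11.9, 9.56, 55.1 and 96.8 TPM. Il1b, a cytokine of activated myeloid cells, was at 2.59, 2.53, 9.42, 3.30, 38.7 and 85.6 TPM. Among the other 7 genes of that list, Csf3r, the receptor for the growth factor G-CSF, was at 4.24, 2.59, 5.62, 4.68, 14.8 and 15.2 TPM, and the chemokine receptor Cxcr2 was at 3.23 TPM or less with its highest values in the same 2 libraries. Camp and Ngp, granule protein genes at 2.59 TPM or less, were also highest there. Mmp9, a matrix protease, was at 18.9 TPM in library 2 and 32.7 to 42.4 TPM in the others, and Retnlg was highest in library 1 at 24.1 TPM, so these genes did not share the pattern. Ly6g, a defining surface marker of mouse neutrophils, had 2 counts, both in library 5. The summed macrophage list did not move with them. It was at 0.300, 0.293 and 0.300% of TPM in libraries 3, 5 and 6. In libraries 1 and 4 it was at 0.286 and 0.295%. However, in 4 of its 17 genes libraries 3, 5 and 6 were all above libraries 1, 2 and 4 (5.20% of the 9878 genes). Cd14 was among these, with 495 counts in library 2 and 2614 in library 6.

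**Figure D4:**
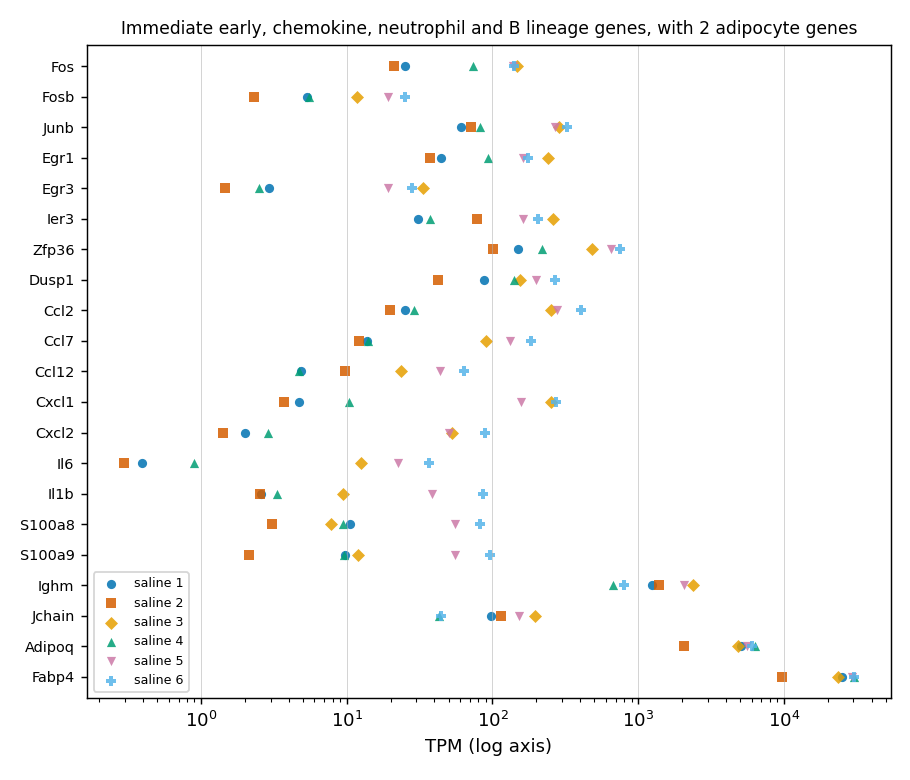
TPM on a log axis of immediate early, chemokine, cytokine, neutrophil and B lineage genes in each saline library, with Adipoq and Fabp4 for scale. Libraries 3, 5 and 6 lie to the right in Fos, Junb, Ccl2, Cxcl1 and Il6, libraries 5 and 6 alone in S100a8 and S100a9, and libraries 3 and 5 in Ighm and Jchain.

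Circadian clock genes were read because the time of injection was fixed. All 18 reached 1 TPM in each library (49.6% of all genes did), and the list held 0.0840 ± 0.0150% of TPM. Nr1d1, the repressor Rev-erb alpha, led at 301 ± 101 TPM, with the output genes Tef and Dbp at 105 and 84.7 TPM and Per1 at 71.9 TPM. Arntl, the activator that Nr1d1 represses, was at 9.86 TPM (6.86 to 12.1). Bhlhe41 was the exception in its order, at 112 TPM in library 2 and 23.0 to 43.8 TPM in the others.

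Over the 9878 genes with a mean of at least 10 TPM and a length of at least 300 bases, the median SD of log2(TPM + 1) over the 6 libraries was 0.20 and the median CV of TPM was 14.2%. The highest library exceeded the lowest by more than 2-fold in 2629 genes (26.6%) and by more than 10-fold in 369 genes. An SD above 1 was found for 473 genes (4.79%). Library 2 was the highest in 358 of these 473 (75.7%), whereas it was the highest in 28.9% of all 9878 genes. When library 2 was left out, 253 genes passed the same threshold. Of the 473, 279 ranked libraries 2, 3, 4, 5 and 6 in that order, and these 279 held 3.81, 20.5, 4.73, 0.843, 0.280 and 0.221% of TPM in libraries 1 to 6. The epididymis, vas deferens and testis lists together have 33 genes, of which 21 were among the 279.

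Leaving out predicted gene models, the 15 genes with the widest spread were Gpx5, Lcn8, Lcn5, Lcn9, Spag11b, Defb20, Spink8, Defb48, Crisp1, Spint4, Lypd8, Teddm1a, Cst11, Epp13 and Rnase9, with SDs from 4.17 to 4.64. They include 3 lipocalins, 2 beta-defensins and the defensin-like Spag11b, and 10 of the 15 were members of the epididymis list. Spink8, a Kazal-type protease inhibitor, was at 2232, 1681, 391, 49.98, 3.73 and 0.765 TPM, and Lypd8 at 2.95, 2887, 639, 76.2, 7.50 and 1.06 TPM. Spink8 thus resembled Crisp1 in being highest in library 1, and Lypd8 resembled Gpx5.

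Among the 15 genes with the narrowest spread were Mark3, Rab1a, Edf1, Cct7, Mafg, Eif2ak1, Mcmbp, D8Ertd738e, Nfyc, Papola, Ints4, Cdv3, Mrps35 and Sfswap. Rab1a, a GTPase of transport from the endoplasmic reticulum to the Golgi, was at 156, 161, 157, 155, 156 and 157 TPM. Edf1, a transcription coactivator, lay between 308 and 319 TPM. Library 2 lay within the range of the other 5 libraries in 12 of the 15 genes. Housekeeping genes in common use were less even: Ppia varied from 353 to 380 TPM, but B2m was at 2257 TPM in library 2 and 3466 to 3710 TPM in the others, and Actb ranged from 1121 to 1985 TPM. Ribosomal protein genes ran the other way, at 5.52% of TPM in library 2 and 3.97 to 5.06% in the others.

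**Figure D5:**
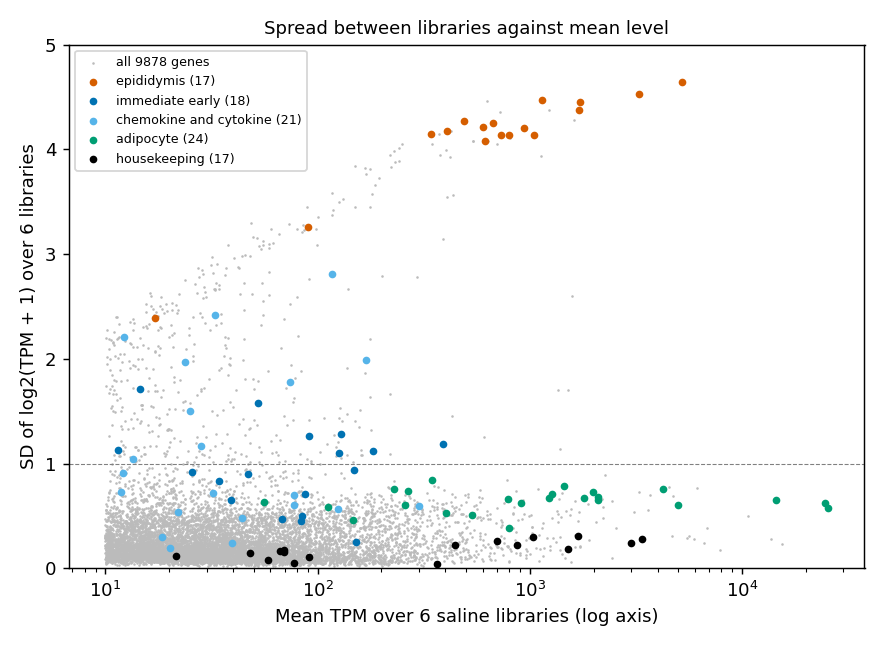
SD of log2(TPM + 1) over the 6 saline libraries (vertical) against mean TPM (horizontal, log axis) for 9878 genes, with 5 gene lists in colour and their number of genes in the legend. Epididymis genes lie between 2.39 and 4.64 and adipocyte markers lie below the dashed line at an SD of 1.

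How wide a list spread depended on library 2. The median SD of the adipocyte markers was 0.65 over 6 libraries, 0.26 without library 2 and 0.13 over libraries 4 to 6. Over all 9878 genes the same medians were 0.20, 0.13 and 0.10. For the immediate early genes they were 0.93, 0.85 and 0.53, and for the epididymis list 4.20, 3.67 and 2.89. The spread of the epididymis list therefore stayed large without libraries 1, 2 and 3. The common biological coefficient of variation, the spread between libraries beyond counting noise that edgeR estimates over genes, was 0.350 over 6 libraries, 0.265 without library 2 and 0.184 over libraries 4 to 6.

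The upstream 250 bases of RefSeq start sites were compared between abundant, variable and even genes. Nuclear genes with an entry were used, 7728 of the 9582 coding genes among the 9878 (80.7%). The sets of 100 were drawn from these 7728, so the most abundant set differs from the 100 genes described earlier. More than 1 start site was listed for 1614 genes, and only the first was used. Of the 473 genes with an SD above 1, 358 were highest in library 2, against 28.9% of the 9878 genes. How many genes of epididymis each set of 100 holds was not examined, so the widest set may not describe variable genes of fat. GGGCGG, on either strand, occurred in 61.7% of all these sequences, in 40% of the 100 most abundant genes, in 20% of the 100 with the widest spread and in 60% of the 100 with the narrowest. TATAAA, on either strand of the 50 bases before the start site, occurred in 1.72% of all, in 11% of the most abundant, in 8% of the widest and in 1% of the narrowest. CCAAT, on either strand, differed less, at 35.8, 37, 31 and 43%. GC content had a median of 60% over all genes, 56.4% in the most abundant, 51.2% in the widest and 60.4% in the narrowest. A match is a run of letters and not a measured site.

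Rab1a is shown as a gene of narrow spread beside the sequences above. Its 100 bases lie at chr11:20201312-20201411 on the plus strand (RefSeq, GRCm38.p6), with a GC content of 74% against 43% for Crisp1.
Rab1a: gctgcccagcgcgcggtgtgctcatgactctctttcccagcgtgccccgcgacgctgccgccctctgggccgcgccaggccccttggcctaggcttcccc
It held neither TATAAA nor CCAAT.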

How the data were processed

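Per the labels, RNA of epididymal fat was isolated with TRIzol and RNeasy columns, and a SMARTER mRNA-Seq kit gave the libraries. The authors deposited whole-number read counts per gene with a listed gene length, and HISAT2, featureCounts, cutadapt, FastQC, DESeq2 and the build mm10 are named, without versions, in the submitters' processing notes. How strand was set and which annotation was used is not given in the sources used here. A deposited table of variance-stabilized values was not used. Groups were taken from the sample titles.

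TPM were computed here from all 27179 rows of the 6 saline libraries with pandas 2.3.3 and numpy 2.4.6 under python 3.11.15, and 1312 rows had an identifier but no symbol. Spread is the SD of log2(TPM + 1) among genes with a mean of at least 10 TPM and a length of at least 300 bases. Dispersion was estimated with edgeR 4.0.16 in R 4.3.3, with only an intercept in the model, and was tested on simulated data. DESeq2 1.42.0 size factors were a scaling alternative. No comparison between groups of samples was made, so no p-value is given. The alternatives were other scalings, pseudocounts, filters and lengths, and leaving out libraries.

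The members and the 39 gene lists were chosen with earlier results of these data known. Genes named were the 30 highest by mean TPM, up to 5 per list by mean TPM with defining markers near 0, the 15 widest and 15 narrowest in spread without predicted models, and Gdf15 and Adrb3; some genes within this rule are not reported here. Lep, Fos, Egr2, Il6, Il1b, Dusp1, Angptl4, Mrap, Acsl1, Gpd1, Cxcr2, Lyve1, Msln, Arntl and other genes outside that rule were named after their values were seen, as were the genes whose sequences are shown. Limits from a count of 0 use 3 counts and cover counting error only. The spread between libraries may hold biological and technical parts, which cannot be told apart here.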

Additional observations from a re-analysis of the deposited data

Results flagged for a closer look

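A value is given here where 1 of the 6 libraries lay far from the rest, measured as the gap from that library to its nearest neighbour divided by the range of all 6. Values above 0.625 are listed, a limit that normally distributed values would pass about 1 time in 20. Of 210 lists and genes examined, 61 passed, and they are not independent, since genes share lists and libraries. Some of the genes were named for their wide spread or after their values were seen. The share that passed therefore cannot be set against 1 in 20.

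Library 2 was the lowest in 9 lists, with ratios of 0.706 for fibroblasts and progenitors, 0.723 for blood endothelium, 0.912 for macrophages, 0.924 for collagens, 0.773 for matrix glycoproteins, 0.724 for protease inhibitors, 0.839 for growth factors, 0.731 for adrenergic signalling and 0.651 for fatty acid uptake. Library 2 was the highest for NK cells (0.777) and epididymis (0.785), and library 1 for vas deferens and seminal vesicle (0.975).

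Among genes of adipocytes, energy metabolism and plasma proteins, library 2 was the lowest for Fabp4 (0.675), Adipoq (0.654), Adrb3 (0.729), Cd36 (0.726), COX1 (0.679), ATP6 (0.701), Gsn (0.678), Apoe (0.726), Fth1 (0.718) and Trf (0.679). Among stromal and vascular genes it was the lowest for Dcn (0.634), Col1a2 (0.778), Col3a1 (0.714), Col4a1 (0.812), Sparc (0.651), Cst3 (0.722), Timp2 (0.650), Igfbp4 (0.687), Igfbp7 (0.747) and Gpihbp1 (0.667). Among immune and other genes it was the lowest for Lyz2 (0.753), C1qa (0.668), C1qc (0.719), Csf1r (0.674), B2m (0.832), Ccl6 (0.834), Ccl11 (0.642) and Eif2ak1 (0.716).

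Library 2 was the highest for the epididymis genes Gpx5 (0.785), Lcn8 (0.790), Lcn9 (0.784), Cst11 (0.778), Defb20 (0.791) and Teddm1a (0.788), and for Defb48 (0.795), Spag11b (0.789) and Lypd8 (0.779). It was also the highest for Lcn2 (0.780), Klrb1c (0.787), Bhlhe41 (0.766), Egr2 (0.733), Prm2 (0.650) and Rab1a (0.651), the last over a range of only a few TPM. Library 1 was the highest for Akr1b7 (0.973) and Spint4 (0.680). Library 3 was the highest for Adrb1 (0.710) and library 5 for Ngp (0.705). Library 5 was the only one with a count for Ly6g and for Itln1, each with a ratio of 1.000 from 2 counts and 1 count.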

How the results depend on the processing

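No paired analysis was possible because only the saline group was used and no groups were compared. As a share of counts in place of TPM, which weights long genes more, the 30 most abundant genes held 14.6% and the adipocyte list 5.43%. The number of genes with an SD above 1 was 994 both without a filter on mean TPM and with a minimum mean of 1 TPM. Leaving out each library in turn gave 253 to 524 such genes and a median SD of 0.124 to 0.215, the lowest of both without library 2. Without libraries 1, 2 and 3, an alternative chosen after seeing the data, 114 genes had an SD above 1, the median SD was 0.0997 and the common biological coefficient of variation was 0.184. The cause of these shifts was not tested. Among 69 values for single lists and genes, 4 moved by over 1.5 times without library 2: Gpx5 from 5190 to 1237 TPM, Lcn8 from 3284 to 768 TPM, the NK list from 0.00542 to 0.00233% and the testis and sperm list from 0.0101 to 0.00556%. Without library 1 the vas deferens list moved from 0.0103% to 0.000791%. Without libraries 1, 2 and 3, 6 did so, Gpx5 and Lcn8 reaching 262 and 157 TPM and the T cell and NK lists 0.00169 and 0.00155%. As shares of counts, 16 of 37 did so. All of these are levels or spreads, which have no direction to turn. Depth limits genes of a few counts, such as Ucp1 and Ly6g.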
